A study of Oryza sativa with 16 samples.

Results

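Flag leaves of the rice introgression line DTY-IL were compared with those of its recurrent parent Swarna in plants that had been kept well watered. The comparison took the 8 control libraries of the series by the genotype and treatment in their labels, 4 of DTY-IL and 4 of Swarna, out of 16 libraries in all. Every locus with at least 10 counts over the 16 libraries was tested, which was 28283 of the 55801 loci in the count table. The loci left out comprised 8766 that had a total of 1 to 9 and 18752 without any count. Swarna is a high-yielding indica variety that is susceptible to drought. DTY-IL is a single line that carries chromosome fragments of the drought-tolerant donor N22 in the Swarna background, so the genotype effect is that of 1 line and not of N22 alleles in general. Plants grew in pots in a greenhouse, each group had 4 biological replicates, and leaves were taken at the reproductive stage. The 8 other libraries came from plants of the same genotypes under reproductive-stage drought stress (RDS), which the paper calls moderate. Soil moisture was lowered in steps in that treatment. All 8 were taken on the same day, after just under a fortnight of stress, at the same soil moisture level. These 8 libraries give a second measurement of the genotype difference.

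An introgression line differs from its recurrent parent where donor fragments were kept, and elsewhere the genomes are expected to be alike. Genes can differ in transcript level because their own allele differs, or because a gene elsewhere in the genome acts on them. A baseline comparison without stress shows the genotype difference that is present before any response to drought. The flag leaf is the main source of sugars for the filling panicle. It also makes florigen, the protein signal that moves to the shoot apex to start flowering. Reads were matched to transcripts of the japonica reference, so an allele that matches that reference poorly or lacks the locus gives few counts whatever its activity, and such a difference cannot be told apart from a difference in expression.

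The total count per library was 15140254 to 19367077 in DTY-IL control and 16451473 to 18719541 in Swarna control, and the 8 totals did not separate the genotypes (exact two-sided permutation test, p = 0.8). The scaling factors (trimmed mean of M-values, TMM) were 0.868 ± 0.0344 in DTY-IL and 0.799 ± 0.0411 in Swarna (SD, n = 4; exact permutation p = 0.0857, 0.257 after adjustment over 3 tests of library measures). Libraries of a group differed by more than counting error. The mean squared difference over counting variance was 12.4 between DTY-IL control 1 and 2 and 74.1 between DTY-IL control 3 and 4. Between Swarna control libraries it was 13.4 to 41.3. At single loci some libraries stood further apart. DTY-IL control 3 had 63 loci with at least 50 counts at more than 10 times the level of each other library of its group, and Swarna control 4 had 23, against 0 to 6 in the other control libraries. Marker levels were those of a leaf. Transcripts of the Rubisco list (the small subunit RbcS2 and the activase RCA) summed to 51780 to 61209 CPM (counts relative to the TMM-scaled library size) in DTY-IL and 60993 to 87391 in Swarna. The 6 tested markers of floral organs and seed (MADS1, MADS2, MADS3, MADS4, MADS16 and GluA1) summed to 19.8 to 21.6 CPM and 19.4 to 32.0 CPM, while MADS6, MADS7, MADS8, MADS58 and OSH1 had fewer than 10 counts in the 16 libraries together.

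A differentially expressed gene (DEG) had an adjusted p of at most 0.05 in the quasi-likelihood test of edgeR and an absolute log2 difference of at least 1. When well watered, 1445 loci were DEGs between DTY-IL and Swarna (5.11% of those tested), of which 845 were higher in DTY-IL (2.99%) and 600 were lower (2.12%). Most differences were moderate. Between 1 and 2 on the log2 scale lay 537 of the higher and 303 of the lower DEGs, and 144 and 143 differed by at least 4. The values of the 4 and 4 libraries did not overlap in 1267 DEGs (87.7%), against 17.4% of all tested loci. Since the same libraries chose the DEGs, that share is a description. The median log2 difference of all tested loci was −0.03. The share of DEGs that was higher in DTY-IL, 58.5%, depended on the scaling and the tool. It was 69.8% (1105 higher and 477 lower) when libraries were scaled by total count alone, which moved the median of all loci to 0.08, and 48.1% (752 and 810) with limma-voom. DTY-IL control 4 weighed most on the count, since 934 DEGs (503 higher) were found without it. Without DTY-IL control 3 and Swarna control 4 together, a choice made after seeing the data, there were 1830 DEGs, and 1175 of the 1445 were among them with the same direction.

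**Figure D1:**
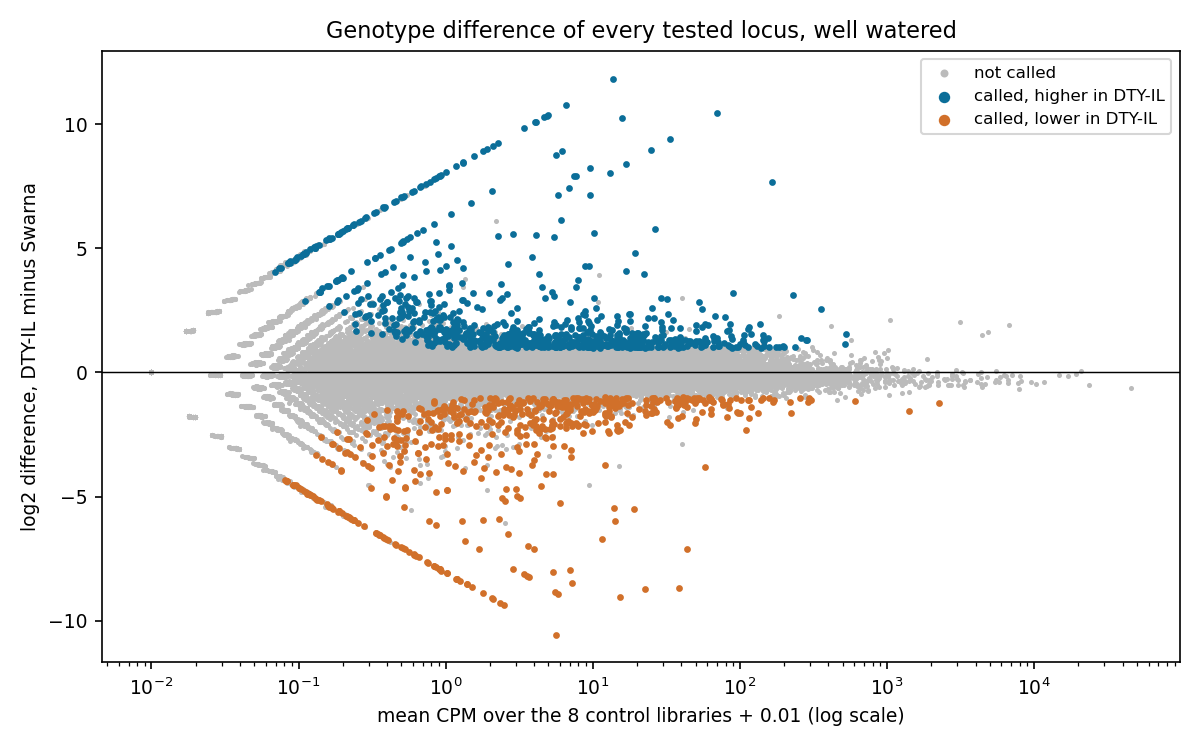
Log2 difference of DTY-IL minus Swarna under control (y axis) against the mean CPM over the 8 control libraries (x axis, log scale), 1 point per tested locus, with the 845 DEGs higher and the 600 lower in DTY-IL in colour. The straight lines of points at the left are loci with counts in 1 genotype and few or none in the other, and among loci with a mean over 100 CPM 53 of 1680 were DEGs.

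DEGs were found at all levels of expression. They made up 4.42% of loci with a mean under 1 CPM, 7.9% of those from 1 to 10 CPM, 3.9% from 10 to 100 CPM and 3.15% above. In 189 of the higher DEGs each Swarna control library had at most 3 counts, and in 85 all 4 had 0. The opposite case, DTY-IL at most 3 counts in each control library, held for 169 of the lower DEGs, with 90 at 0. Few of these had a mean of at least 50 counts, 21 of the former and 10 of the latter.

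LOC_Os04g23040 was the most abundant of those present in DTY-IL and near the floor in Swarna. It had 142, 149, 132 and 137 CPM in DTY-IL control 1 to 4 and 0.189, 0, 0 and 0.158 CPM in Swarna, at least 634-fold higher when Swarna is set to the floor of 3 counts per library. The 2 neighbouring loci LOC_Os01g37210 and LOC_Os01g37260 had 9.23 to 10.4 CPM and 8.41 to 10.7 CPM in DTY-IL and 0 in Swarna, at least 44.6-fold and 44.2-fold higher. In the other direction, LOC_Os08g30634 had 0.138, 0, 0.114 and 0.149 CPM in DTY-IL and 47.9, 47.9, 48.4 and 37.5 CPM in Swarna, at least 227-fold lower. LOC_Os11g34920 had 0 in DTY-IL and 12.6, 12.8, 12.4 and 7.10 CPM in Swarna, at least 56.2-fold lower, and LOC_Os03g05049 was at least 54.8-fold lower. These 6 loci were read as nearly absent in 1 genotype and present in every library of the other, and all 6 were DEGs in the same direction in the drought libraries too. The deposited table names loci by identifier only, and no function is given here for them. The same holds for LOC_Os01g73656 (at least 124-fold higher), LOC_Os11g34770 (at least 59.1-fold higher), LOC_Os08g35160 (at least 152-fold lower) and LOC_Os04g08190 (at least 57.6-fold lower).

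Genes of known function were examined in 32 lists of pathways and families. Of the 263 members with a name and enough counts, 2 were DEGs higher in DTY-IL and 7 were DEGs lower, 3.42% against 5.11% of all tested loci. By adjusted p alone, without the threshold on size, 11 were higher and 11 lower, against 9.9% of all tested loci. Their median log2 difference was −0.09. Of the 2 higher DEGs, 1 is a peroxidase from the loci that the study itself annotated on these samples, so that list is not independent evidence of its direction. The lists with a DEG were those of flowering, floral markers, gibberellin, cytokinin, potassium and sodium transport, the clock, chlorophyll synthesis and the study's loci.

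**Figure D2:**
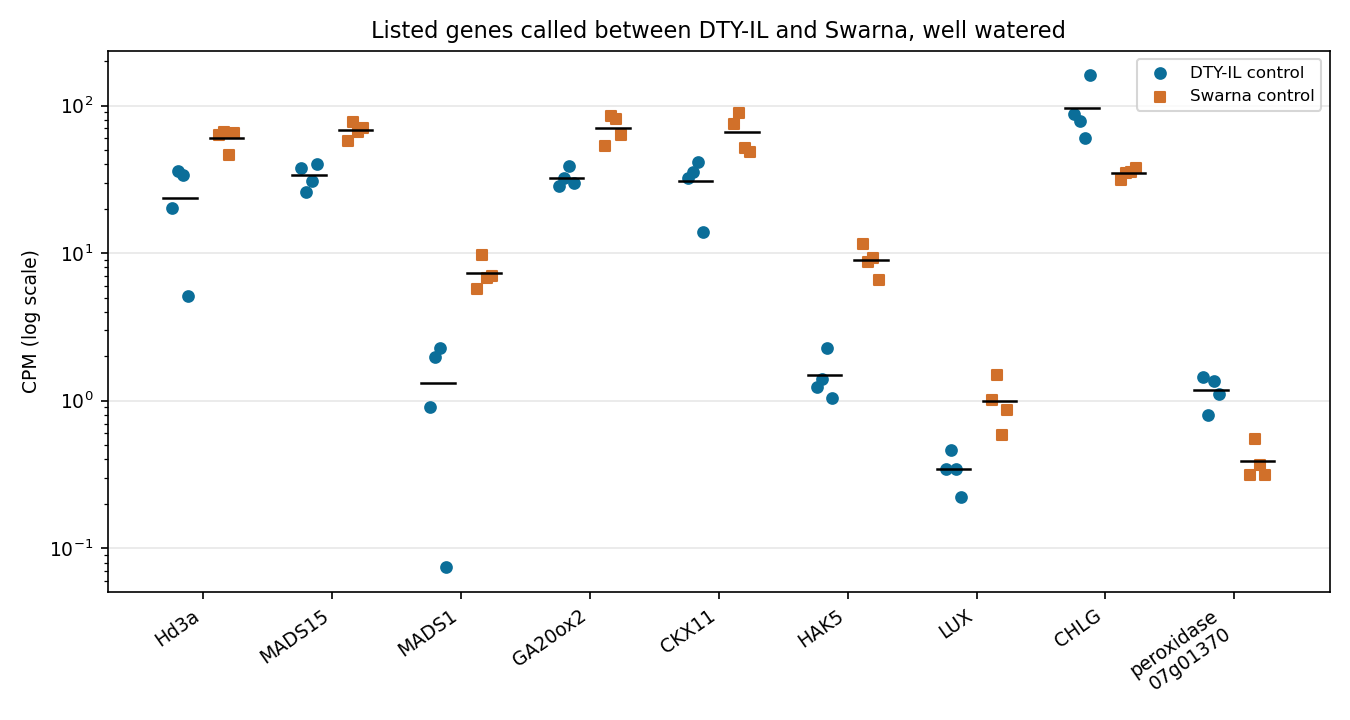
CPM (y axis, log scale) of the 9 listed genes that were DEGs under control, with 1 point per library, circles for DTY-IL control, squares for Swarna control and a bar at each group mean. The groups overlap in none of the 9 genes, and MADS1 in DTY-IL control 4 is the lowest point, at 0.0744 CPM.

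Among the flowering genes, Hd3a and MADS15 were lower in DTY-IL and the others were not DEGs. Hd3a encodes rice florigen, and MADS14 and MADS15 encode factors of the FRUITFULL type that act after florigen at the shoot apex. Of 10 tested flowering genes 2 were DEGs, both lower (2.12% of all tested loci were), and the median of the 10 was −0.34. Hd3a (LOC_Os06g06320) had 20.3, 35.9, 33.8 and 5.14 CPM in DTY-IL control 1 to 4 and 63.1, 66.5, 46.4 and 64.7 CPM in Swarna control 1 to 4. All DTY-IL values were below all Swarna values, and DTY-IL control 4 was far below its group. The log2 difference was −1.33 ± 0.39 (SE; edgeR adjusted p = 0.0359). This call was not firm. The adjusted p was 0.0992 without DTY-IL control 1, and 0.0737, 0.0809, 0.0504 and 0.0698 without Swarna control 1, 2, 3 and 4 in turn, and it was 0.0675 when the 8 control libraries were fitted alone.

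MADS15 (LOC_Os07g01820) had 37.9, 25.8, 31.0 and 40.0 CPM in DTY-IL and 57.4, 77.5, 66.0 and 70.9 CPM in Swarna, without overlap. Its log2 difference was −1.01 ± 0.25 (edgeR adjusted p = 0.0168), at the edge of the size threshold. It fell short of that threshold without DTY-IL control 2 (−0.91) or 3 (−0.98), without Swarna control 2 (−0.94) or 4 (−0.99), with both doubted libraries left out (−0.95), with scaling by total count alone (−0.89) and in the fit of the control libraries (−0.99). The direction was the same in each. MADS14 had 263 to 377 CPM in DTY-IL and 442 to 557 CPM in Swarna, and its log2 difference of −0.57 passed the adjusted p alone (0.0485, edgeR). MADS18, MADS50, MADS56, DTH8, Ehd2 and Hd1 lay between −0.49 and −0.01 with none past the test. The summed level of the flowering list was 597 to 784 CPM in DTY-IL and 923 to 1081 CPM in Swarna. This was not particular to flowering. Sums of the Calvin cycle, defence, gibberellin, potassium and sodium, and study lists were also lower in DTY-IL without overlap.

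MADS1, a floret identity gene that stands in the list of floral markers, followed the same direction at a low level. It had 0.900, 1.99, 2.28 and 0.0744 CPM in DTY-IL and 5.67, 9.73, 6.81 and 6.94 CPM in Swarna. The log2 difference was −2.44 ± 0.46 (edgeR adjusted p = 0.0028). The other tested floral genes did not move with it, since MADS2, MADS3, MADS4 and MADS16 had adjusted p values of 0.241 to 0.81. MADS1 is a gene of the young panicle, and whether panicle tissue had a part in this difference was not tested.

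GA20ox2 is the gibberellin oxidase known as SD1, the semi-dwarfing gene. It was lower in DTY-IL, with 28.3, 32.3, 39.1 and 29.9 CPM against 53.6, 84.7, 80.5 and 62.8 CPM in Swarna. The groups were clearly apart, and the log2 difference was −1.12 ± 0.19 (edgeR adjusted p = 0.00131). It stayed a DEG when any control library was left out, and was −0.99 with scaling by total count alone. GA20ox2 has the identifier LOC_Os01g66100, which comes shortly before the chromosome 1 loci that the study annotated. The receptor GID1, the F-box protein GID2, the DELLA repressor SLR1 and the gibberellin-inactivating EUI1 had log2 differences of −0.41 to −0.15, none past the test.

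Among 12 tested cytokinin oxidases and type A response regulators, 1 was a DEG (8.33%, against 5.11% of all tested loci, which is no result about the family). CKX11 (LOC_Os08g35860), an enzyme that degrades cytokinins, had 32.5, 35.5, 41.7 and 13.8 CPM in DTY-IL and 74.8, 89.6, 51.5 and 48.5 CPM in Swarna. The values did not overlap, and DTY-IL control 4 was again the lowest. The log2 difference was −1.10 ± 0.31 (edgeR adjusted p = 0.0297). The adjusted p was 0.0643, 0.0504 and 0.077 without DTY-IL control 1, 2 and 4, and 0.0727 and 0.0981 without Swarna control 1 and 2, and scaling by total count alone gave −0.98. None of the 5 other tested oxidases passed. CKX4 had 59.1 to 89.1 CPM in DTY-IL and 31.9 to 56.3 CPM in Swarna, a difference of 0.66 that did not pass (edgeR adjusted p = 0.0812). CKX3 stood at 1.89 with an adjusted p of 0.087, and CKX2, CKX5 and CKX9 at −0.09, 0.45 and −0.34. The 6 tested response regulators, which cytokinin induces, had log2 differences of 0.30 to 0.73 and none passed.

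HAK5, a high-affinity potassium transporter, had the largest difference among the listed DEGs. HAK5 (LOC_Os01g70490) had 1.25, 1.39, 2.28 and 1.04 CPM in DTY-IL and 11.5, 8.70, 9.30 and 6.55 CPM in Swarna. Its log2 difference was −2.58 ± 0.41 (edgeR adjusted p = 0.000667), and it was a DEG under every alternative tried. The potassium channel AKT1 was lower as well, at 8.15 to 11.2 CPM against 12.3 to 17.3 CPM, with a log2 difference of −0.55 that passed the adjusted p alone (0.028, edgeR). The transporter HAK1 and the sodium transporters HKT1;1, HKT1;4, HKT1;5 and HKT2;1 had differences of −0.92 to 0.20 that did not pass.

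LUX, a part of the evening complex of the circadian clock, was lower in DTY-IL at a level of few counts. LUX (LOC_Os01g74020) had 0.346, 0.464, 0.342 and 0.223 CPM in DTY-IL and 1.01, 1.503, 0.586 and 0.868 CPM in Swarna. The log2 difference was −1.49 ± 0.45 (edgeR adjusted p = 0.0437), with values that did not overlap. The call was lost without any 1 of 7 libraries. The adjusted p was 0.0893, 0.0592, 0.0745 and 0.129 without DTY-IL control 1 to 4, and 0.0855, 0.141 and 0.0613 without Swarna control 1, 2 and 4. It was 0.226 with limma-voom and 0.0965 without both doubted libraries. ELF3-1, another member of the complex, had 71.9 to 98.6 CPM in DTY-IL and 110 to 125 CPM in Swarna, a difference of −0.48 that passed the adjusted p alone (0.0217, edgeR). GI and PRR73 lay at −0.01 and −0.16. LHY, which peaks in the morning, was at −0.69 without passing (edgeR adjusted p = 0.086).

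Chlorophyll synthase, the last enzyme of chlorophyll synthesis, was the named pathway gene that was higher in DTY-IL. CHLG (LOC_Os05g28200, also named YGL1) had 88.2, 78.1, 60.1 and 160 CPM in DTY-IL and 31.5, 34.97, 35.4 and 37.9 CPM in Swarna. All DTY-IL values exceeded all Swarna values, and the log2 difference was 1.47 ± 0.27 (edgeR adjusted p = 0.00204). It stayed a DEG when any control library was left out. CHLD, a subunit of the magnesium chelatase earlier in the pathway, had 182, 196, 124 and 309 CPM in DTY-IL and 101, 111, 113 and 130 CPM in Swarna. Its difference of 0.84 passed the adjusted p alone (0.0317, edgeR). Without DTY-IL control 3, CHLD became a DEG, and the count of DEGs in the photosynthesis and chlorophyll synthesis lists went from 1 to 2. The other chelatase subunits CHLH and CHLI lay at −0.08 and 0.24, and DVR, CAO1, PORA and PORB at −0.59 to 0.04, with none past the test.

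The tested genes of the photosynthetic apparatus showed no DEG, but they were a minority of those listed. Matched names left 2 of 6 listed Rubisco genes and 4 of 10 photosystem II antenna genes to test. Of the listed photosystem subunits and Calvin cycle genes, 4 of 16 and 2 of 8 were tested. No listed photosystem I antenna gene had a matched name. Over the lists of Rubisco, the photosystem II antenna, photosystem subunits, the Calvin cycle and chlorophyll synthesis, 20 genes were tested and CHLG was the DEG among them, with a median log2 difference of −0.22. RCA had 30380 to 39510 CPM in DTY-IL and 46280 to 60020 CPM in Swarna, without overlap, yet the difference of −0.62 did not pass (edgeR adjusted p = 0.125). The plastid aldolase had 15620 to 21410 CPM and 23220 to 31620 CPM, a difference of −0.52 (edgeR adjusted p = 0.303). Lhcb genes lay between −0.40 and −0.10, and PsaH, PsbQ, plastocyanin and leaf FNR1 between −0.54 and 0.14. Of the same 20 genes, 8 were DEGs higher in DTY-IL in the drought libraries, where 4.2% of all tested loci were. Transcripts of chlorophyll breakdown (NYC1, NOL, SGR, RCCR1) lay between −0.95 and 0.65 under control with none past the test.

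The lists of drought and abscisic acid (ABA) responses held no DEG. Clade A PP2C phosphatases, the negative regulators of ABA signalling, had a median of 0.06. Of these, PP2C08 and PP2C30 were higher by the adjusted p alone. PP2C30 had 19.2 to 23.1 CPM in DTY-IL and 10.6 to 13.9 CPM in Swarna (log2 difference 0.77, edgeR adjusted p = 0.0354), and PP2C08 had 12.1 to 19.7 CPM and 5.86 to 14.1 CPM (0.88, 0.0186). P5CS1, the enzyme that starts proline synthesis, had 115, 145, 77.0 and 186 CPM in DTY-IL and 53.6, 88.0, 64.3 and 66.6 CPM in Swarna, a difference of 0.94 with an edgeR adjusted p of 0.0168. The groups overlapped there through DTY-IL control 3. The ascorbate peroxidase APX5 was higher by 0.87 (edgeR adjusted p = 0.00947), at 4.76 to 5.97 CPM against 2.46 to 3.48 CPM. In the jasmonate list, with 18 tested and no DEG, the repressor JAZ4 was lower by the adjusted p alone (−0.43, edgeR adjusted p = 0.0426) and the conjugating enzyme GH3-5 was higher (0.42, 0.0253). The 8 tested dehydrins and LEA genes had a median of −0.36, and the ABA synthesis and catabolism genes had one of −0.25. Aquaporins (13 tested), heat shock genes (12), cellulose synthases and expansins (18), phenylpropanoid genes (8) and sugar transport and sucrose genes (22) had no DEG, with the sucrose synthase SUS2 higher by the adjusted p alone (0.49, edgeR adjusted p = 0.0325). Neither had starch synthesis (5), nitrogen assimilation (8), ethylene (8), defence (5) or wax and leaf rolling genes (3).

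In Swarna control 4, 5 list members with at least 50 counts stood at more than 10 times the level of each other library of the group. They were DREB1B, DREB1E, DREB1G, JAZ10 and JAZ13. These and the related genes below were chosen after their values were seen, out of 11 tested stress factors, 18 jasmonate genes and 5 ABA metabolism genes. DREB1 factors switch on dehydration and cold response genes, JAZ proteins repress jasmonate signalling and are themselves induced by it, and ABA8ox1 breaks down ABA. DREB1B had 15.7 CPM in Swarna control 4 and at most 0.692 CPM in each of the 7 other control libraries. JAZ10 had 26.8 CPM there and 0.969 to 2.11 CPM elsewhere. ABA8ox1 had 23.2 CPM there and 2.05 to 4.32 CPM elsewhere. DREB1A, DREB1C, DREB1E, DREB1G, JAZ12 and JAZ13 were likewise highest in that library, and the jasmonate synthesis gene AOS1 had 19.3 CPM there and 2.71 to 4.79 CPM elsewhere. Of the other 6 stress factors, DREB2A, DREB2B, bZIP23, TRAB1 and NAC5 lay within the range of the other libraries there, and LOC_Os01g66120 was highest there at 278 CPM against at most 230 CPM. None of the 9 plotted genes was a DEG, with edgeR adjusted p values of 0.0777 to 0.411, and log2 differences of −5.54 to −1.08. Other such loci did enter the DEGs. Of the 23 loci at more than 10 times the rest of the group in Swarna control 4, 7 were DEGs, against 5.11% of all tested loci. Of the 63 such loci in DTY-IL control 3, 0 were DEGs. DTY-IL control 3 had its own case in SWEET5, a sugar exporter. It had 2.14, 0.133, 27.8 and 0.298 CPM in DTY-IL and 21.2, 29.7, 24.3 and 14.3 CPM in Swarna, so that this library lay in the Swarna range.

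**Figure D3:**
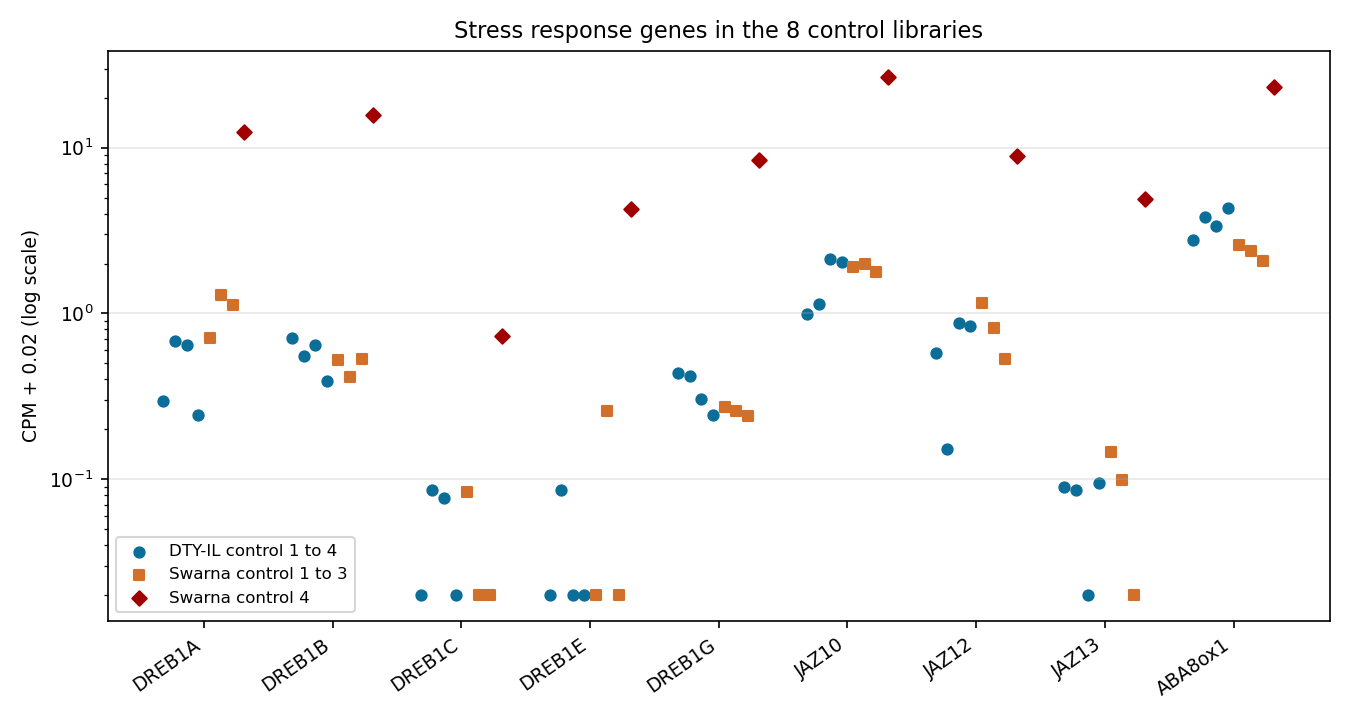
CPM plus 0.02 (y axis, log scale) of 9 response genes chosen after their values were seen, in the 8 control libraries, with 1 point per library. The diamond, Swarna control 4, is the highest point in each gene, for example 15.7 CPM for DREB1B.

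Loci that the study annotated were measured by the same test. The class III peroxidase LOC_Os07g01370 was a DEG, with 1.45, 0.795, 1.37 and 1.12 CPM in DTY-IL and 0.315, 0.554, 0.366 and 0.316 CPM in Swarna. Its log2 difference was 1.60 ± 0.44 (edgeR adjusted p = 0.0286). The adjusted p was 0.0756, 0.0512 and 0.0577 without DTY-IL control 1, 3 and 4, and 0.0795, 0.0726 and 0.0679 without Swarna control 1, 3 and 4. The no apical meristem gene LOC_Os01g66120 had 153, 183, 204 and 132 CPM in DTY-IL and 198, 190, 230 and 278 CPM in Swarna, which overlapped, and its difference of −0.41 did not pass (edgeR adjusted p = 0.438). The kinase genes LOC_Os01g66820 and LOC_Os03g03510 lay at −0.13 and −0.42 with adjusted p values of 0.901 and 0.472. The peroxidases LOC_Os03g13200 and LOC_Os07g48020 and the AP2 gene LOC_Os07g22770 had under 1 CPM in every control library and adjusted p values of 0.329 to 0.492. LOC_Os01g67030 had 1 count in the 16 libraries and was not tested. From LOC_Os01g66120 to LOC_Os01g67030, 60 loci were tested, of which 4 were DEGs higher (2.99% of all tested loci) and 1 was a DEG lower (2.12%).

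The most abundant DEGs without overlap were loci with no name in the lists. LOC_Os02g47510 had 1377, 1500, 1653 and 871 CPM in DTY-IL and 3158, 3973, 2621 and 2978 CPM in Swarna (log2 difference −1.24 ± 0.28, edgeR adjusted p = 0.00963). LOC_Os02g57280 had 636, 787, 851 and 582 CPM in DTY-IL and 2207, 2486, 1992 and 1782 CPM in Swarna (−1.57 ± 0.24, edgeR adjusted p = 0.00041). Both were DEGs when any control library was left out. Among those higher in DTY-IL, LOC_Os05g47540 had 1228, 613, 267 and 317 CPM against 156, 39.9, 94.2 and 118 CPM (2.57 ± 0.55, edgeR adjusted p = 0.0069), with a wide spread in both groups. LOC_Os12g17910 had 753, 653, 390 and 1332 CPM against 262, 247, 220 and 354 CPM (1.53 ± 0.27, edgeR adjusted p = 0.00154). LOC_Os07g34570, LOC_Os07g43810 and LOC_Os08g41990 were higher by 1.15, 1.30 and 1.40.

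The other abundant loci were lower, and their calls were lost when some of the libraries were left out. LOC_Os03g10620 (−1.13, edgeR adjusted p = 0.0457) had an adjusted p of 0.195 without Swarna control 2, the library with 1479 CPM against 605 to 651 CPM in the other 3. Its adjusted p was 0.12, 0.0909, 0.0861 and 0.0615 without DTY-IL control 1 to 4 and 0.0579 without Swarna control 3. LOC_Os11g25780 (−1.12, 0.0207) stood at 0.0599 and 0.0721 without DTY-IL control 1 and 4 and at 0.0772 without Swarna control 2. LOC_Os03g04770 (−1.01, 0.0274) stood at 0.0702 and 0.0834 without DTY-IL control 1 and 4 and at 0.0836 and 0.054 without Swarna control 2 and 3.

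The genotype difference was measured a second time in the 8 drought libraries, which share no library with the controls. There 1863 loci were DEGs (6.59%), with 1188 higher in DTY-IL (4.2%) and 675 lower (2.39%). DEGs under both treatments with the same direction numbered 422 (1.49% of tested loci), which was 29.2% of the control DEGs and 22.7% of the drought DEGs. A further 64 control DEGs were DEGs in the opposite direction under drought. Of the control DEGs, 1043 (72.2%) had a fitted difference of the same sign under drought, against 53.8% of all tested loci. Among loci with at most 3 counts in every control library of 1 genotype, 114 of 189 higher and 89 of 169 lower DEGs were DEGs again. The median log2 difference under drought was 0.455 for the 845 higher DEGs and −0.437 for the 600 lower ones, against 1.57 and −1.99 under control. The difference itself changed between treatments (interaction, adjusted p of at most 0.05) in 396 of the control DEGs (27.4%), against 6.42% of all tested loci. Since the control values chose these loci and enter the interaction, that share is a description.

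**Figure D4:**
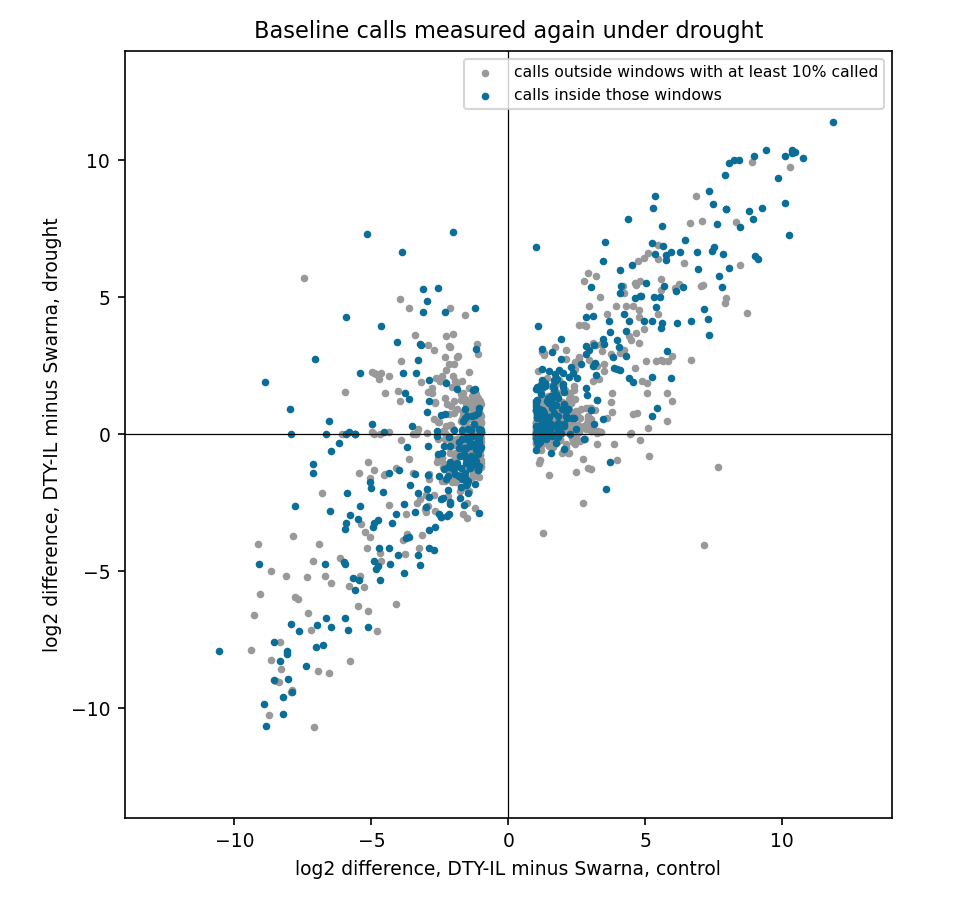
Log2 difference of DTY-IL minus Swarna under drought (y axis) against the same under control (x axis) for the 1445 control DEGs, with those inside windows where at least 10% of loci were DEGs in blue and the others in grey. The 422 loci that were DEGs again with the same direction lie in the lower left and upper right, and 1043 of the points share their sign.

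Of the listed DEGs, MADS15, MADS1, LUX and CHLG were DEGs again under drought. The drought log2 difference of MADS15 was −1.05 (edgeR adjusted p = 0.0121), that of MADS1 −3.02 (0.0082), that of LUX −1.70 (0.000264) and that of CHLG 1.16 (0.00829). LUX stood at 9.29 to 14.1 CPM in DTY-IL and 23.9 to 62.7 CPM in Swarna under drought, well above its level in the control plants. GA20ox2 behaved otherwise. It had 45.6, 50.5, 27.9 and 35.4 CPM in DTY-IL drought and 39.6, 42.5, 37.2 and 29.0 CPM in Swarna drought, with a difference of 0.10, and its interaction was 1.22 (edgeR adjusted p = 0.0139). Hd3a was under 1 CPM in all 8 drought libraries, which leaves little to compare. HAK5 was −0.72 (edgeR adjusted p = 0.352), CKX11 −0.35 and the peroxidase LOC_Os07g01370 0.87, with interactions that did not pass. Of the abundant loci, LOC_Os02g47510 turned from −1.24 to 1.41 (edgeR adjusted p = 0.00343), with an interaction of 2.64 (0.00172). LOC_Os02g57280 went from −1.57 to 0.38 with an interaction of 1.95 (0.00317). The control values chose GA20ox2 and these abundant loci and enter their interactions, which are therefore a description.

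DEGs were unevenly spread over the chromosomes, as read from the order of the locus identifiers. The share of tested loci that were DEGs was highest on chromosome 4 (7.08%, 179 of 2528) and chromosome 1 (6.98%, 271 of 3885), followed by chromosome 9 (6.42%). It was 3.52% on chromosome 2, the lowest, and 3.71% to 5.67% on the others. In consecutive windows of 100 tested loci, the median window had 4.0% DEGs and the highest 23.0%. In 35 of 276 windows at least 10% of loci were DEGs, and these 35 held 473 DEGs (32.7%) among 12.7% of the tested loci. Since those windows were picked by the control DEGs, the drought libraries give the separate reading. Of all loci in the 35 windows 14.4% were DEGs under drought, against 5.46% elsewhere. Of the control DEGs inside, 240 (50.7%) were DEGs again with the same direction, against 182 of 972 (18.7%) outside.

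The longest run of such windows covered LOC_Os04g01070 to LOC_Os04g31350 on chromosome 4, where 123 of 800 tested loci were DEGs, 61 higher and 62 lower, and 73 (59.3%) were DEGs again under drought. A run from LOC_Os01g37050 to LOC_Os01g43050 on chromosome 1 had 49 DEGs among 300 loci, of which 28 repeated. Other runs on that chromosome had 49 of 400 (LOC_Os01g48790 to LOC_Os01g55110) and 35 of 285 (LOC_Os01g70390 to LOC_Os01g74660), and the latter holds HAK5 and LUX. Runs on chromosome 11 (LOC_Os11g32510 to LOC_Os11g37520, 29 of 200) and chromosome 9 (LOC_Os09g29810 to LOC_Os09g35740, 36 of 300) had the largest repeated shares, 69.0% and 66.7%. Single windows made up the rest. Hd3a, MADS15, MADS1, GA20ox2, CKX11 and CHLG lay outside all windows of this kind. No window of chromosomes 2, 5, 6 and 7 reached 10%.

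**Figure D5:**
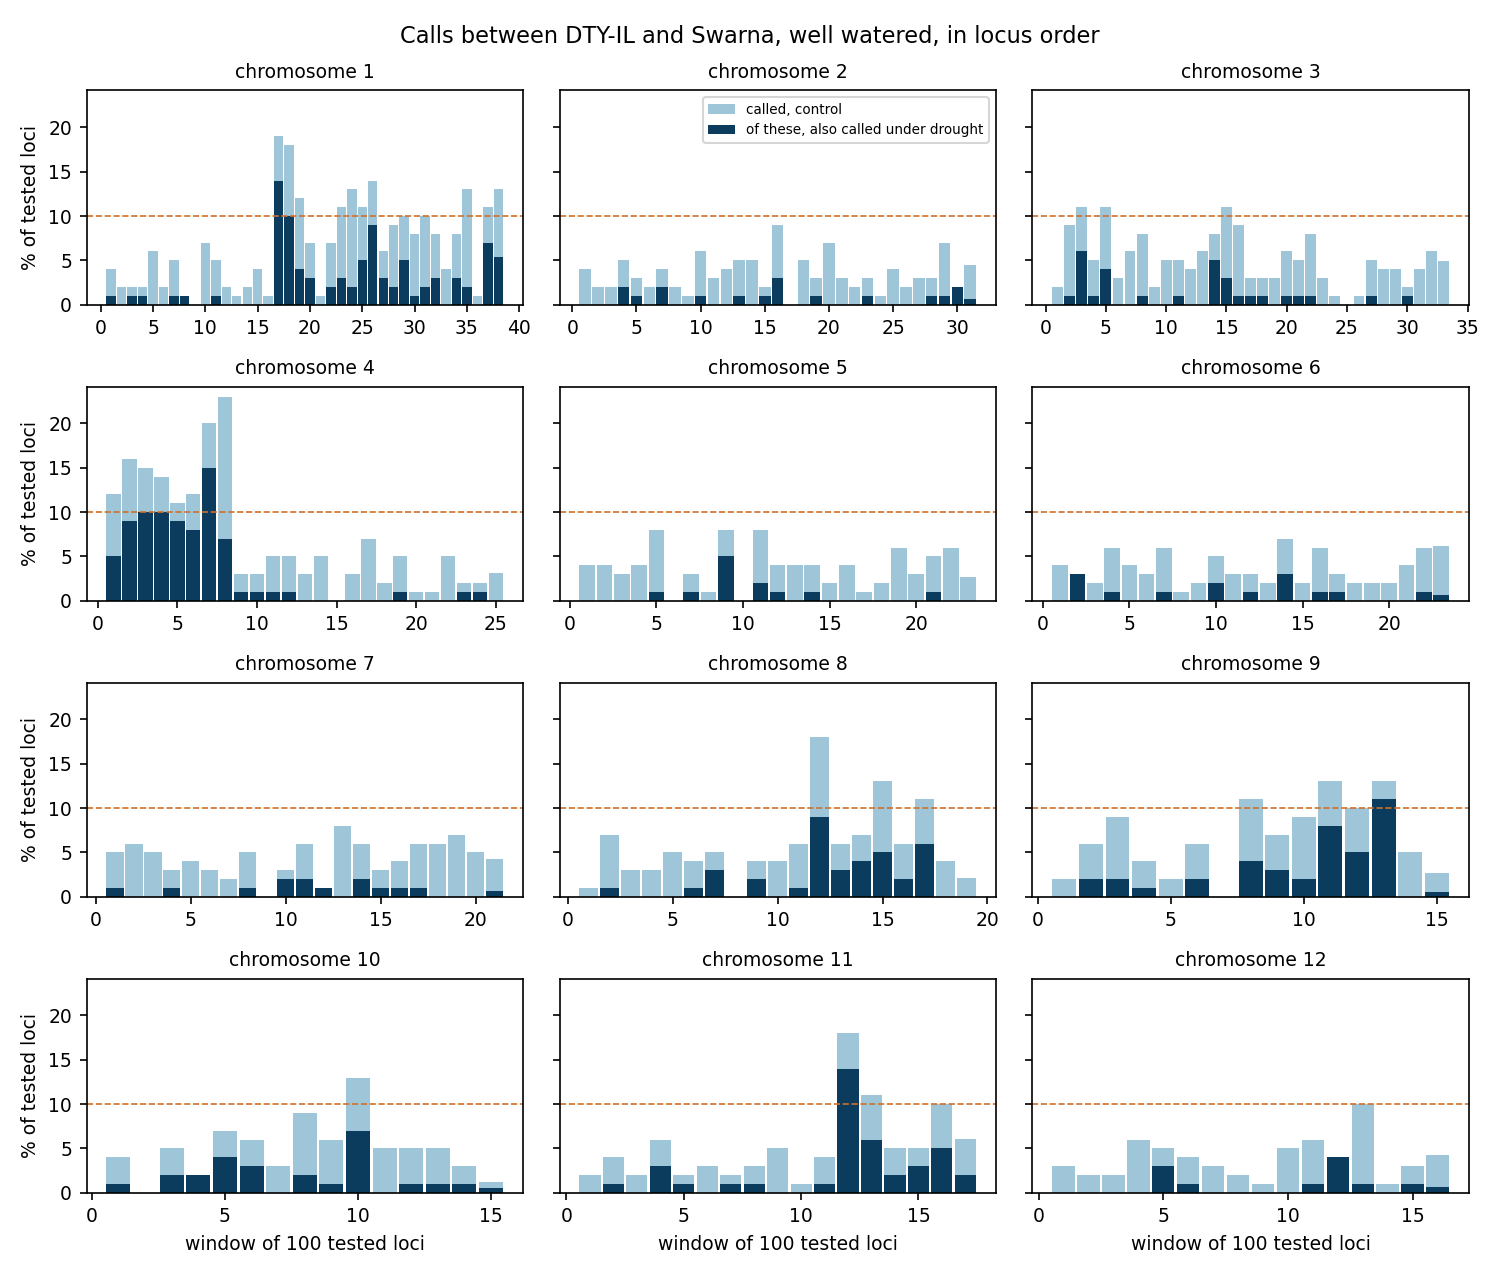
Percent of tested loci that were DEGs under control (light bars, y axis) in consecutive windows of 100 tested loci in identifier order (x axis) on the 12 chromosomes, with the part that was also a DEG under drought in the same direction in dark. The dashed line marks 10%, which the first 8 windows of chromosome 4 exceed with 123 DEGs together.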

How the data were processed

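Flag-leaf mRNA of DTY-IL and Swarna was sequenced in 16 libraries, 4 per genotype and treatment, grouped by the titles. Per the sources, Trimmomatic was used for trimming, and Salmon 0.7.2 (quasi-mapping, sequence and GC bias correction) assigned the reads to japonica transcripts (IRGSP-1.0, MSU annotation, Cufflinks 2.2.1). The authors summed the estimates to loci with tximport. The deposited values are expected counts (estimated counts), written as whole numbers. Whether it was scaled by transcript length is not given in the sources used here. The authors also deposited 4 tables of contrasts (log2 fold changes, standard errors, test statistics, p-values and adjusted p-values), which were not used.

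Loci with at least 10 counts in total were fitted with edgeR 4.0.16 (R 4.3.3, TMM, quasi-likelihood test) in 1 model of the 4 groups over 16 libraries, with Benjamini-Hochberg adjustment over all tested loci. The thresholds are those of the study. All tests were two-sided, and exact permutation tests of 4 against 4 libraries cannot give a p below 0.0286. Replicates are biological per the sources, and no library was a copy of another. Counting intervals and floors (3 counts) cover counting error only.

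The members and lists were chosen with earlier results of these data known. The 35 named genes were every listed DEG (at most 4 per list), the study's annotated loci, the 5 DEGs with the largest and the 5 with the smallest fitted difference at a mean of at least 50 counts, and the 5 most abundant DEGs in each direction, the last 3 sets without overlap. List members outside this rule were named after their values were seen. The table gives identifiers only. Names of listed loci came from published pairs of names and identifiers and were used where the RefSeq table (ASM3414082v1) holds the symbol on the same chromosome, which held for 274 of 416 listed loci. A listed gene is not reported here. No genome was used, and no coordinates or sequences are printed.

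On simulated data 192 of 200 loci changed by 2 on the log2 scale were recovered, with 8 false calls, for this contrast. The 200 were drawn from loci with a mean of at least 50 counts over the control libraries. Counts were drawn independently, so no simulated library stood apart. The simulation therefore does not cover the 430 DEGs with a mean under 1 CPM. Nor does it cover the 537 higher and 303 lower DEGs with differences between 1 and 2. Alternatives were RLE size factors, total counts alone, no filter, filterByExpr, DESeq2 1.42.0, limma-voom (limma 3.58.1), glmTreat, adjusted p alone, fits of 8 libraries, a replicate block, removal of the 20 most abundant genes, windows of 50 loci and removal of each control library. Final windows of the chromosomes held 114 to 188 loci.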

Additional observations from a re-analysis of the deposited data

Results flagged for a closer look

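Several values of the named loci stand out by size alone and are given without an explanation. A library far from the other 3 of its group was looked for by a test that chance alone passes in about 1 of 20 groups. With 35 named genes, some passes by chance alone are expected. In 6 cases 1 library passed. For Hd3a it was Swarna control 3, at 46.4 CPM against 63.1 to 66.5 CPM. LOC_Os03g13200 had 0.447 CPM in DTY-IL control 4 and at most 0.0692 CPM in the other 3 libraries. LOC_Os11g34920 had 7.10 CPM and LOC_Os08g30634 had 37.5 CPM in Swarna control 4, both the lowest of their group. LOC_Os03g05049 had 14.5 CPM in Swarna control 3 and LOC_Os03g10620 had 1479 CPM in Swarna control 2, both the highest of their group.

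In 6 further named loci the genotype difference itself differed between drought and control by edgeR's interaction test. Apart from the peroxidase LOC_Os07g48020, these loci were named because they were control DEGs. Their control values chose them and enter the interaction, so these interactions are a description. The peroxidase was annotated by the study on these samples. The drought difference minus the control difference on the log2 scale was 1.22 for GA20ox2 (edgeR adjusted p = 0.0139), 2.64 for LOC_Os02g47510 (0.00172) and 1.95 for LOC_Os02g57280 (0.00317). It was −1.22 for LOC_Os07g34570 (0.0165) and −1.42 for LOC_Os07g43810 (0.0185), whose log2 differences under drought were −0.07 and −0.12. For the peroxidase LOC_Os07g48020 it was 4.59 (0.0452), from a control level under 1 CPM in every library.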

How the results depend on the processing

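The log2 difference of no named gene changed sign under the alternatives tried, but the balance of the DEGs did, from 58.5% higher to 48.1% (752 higher and 810 lower) with limma-voom. Of 732 repeats of the 35 named genes, 655 kept their side of the threshold and 77 lost it, and 11 of the 29 named DEGs kept the call throughout. glmTreat, which tests whether a difference exceeds the size threshold, left 285 control DEGs (144 higher and 141 lower), 478 drought DEGs, 187 shared in direction and 0 in the photosynthesis and chlorophyll lists. With it, HAK5 was the listed DEG that stayed (adjusted p = 0.0129, glmTreat). By adjusted p alone there were 2801 control loci (1655 and 1146), 3159 drought loci and 2 in the photosynthesis and chlorophyll lists. Leaving out each control library in turn gave 934 to 1856 control DEGs, 503 to 1041 higher and 412 to 815 lower, 1747 to 1900 under drought, 365 to 425 shared and 1 to 2 in the photosynthesis and chlorophyll lists. The extremes of the first came without DTY-IL control 4 and 3. Without DTY-IL control 3 and Swarna control 4 together the lists held 2. DESeq2 gave 1538 control DEGs and limma-voom 1562, and the chromosome shares kept within 1.5 times their value. With windows of 50 loci, those with at least 10% DEGs held 41.8% of the DEGs and 15.5% of the tested loci. The study laid its pots out in randomized complete blocks, and whether the replicate numbers stand for blocks is not stated. The correlation of deviations between same-numbered control libraries was 0.105, 0.0146, 0.172 and 0.0645. Between differently numbered ones it was −0.253 to 0.217. These values do not settle whether the libraries are paired, and the main fit used no pairing. A replicate block gave 1455 control DEGs (808 and 647) by title number and 1452 (774 and 678) by the number in the description. These fits kept 81.2% and 86.6% of the control DEGs of the main fit with the same direction. Totals of 15140254 counts and more limit loci under 1 CPM to a few counts per library, as in LUX and the peroxidases.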

Other observations

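Diterpenoid phytoalexin genes, which make defence compounds and lie in clusters on chromosomes 2 and 4, held no DEG among 11 tested under control. KSL7 of the chromosome 2 cluster had 211, 216, 156 and 268 CPM in DTY-IL and 113, 149, 111 and 136 CPM in Swarna, and its difference of 0.74 passed the adjusted p alone (0.00998, edgeR). It was 0.70 under drought (0.0127). CPS4 of the chromosome 4 cluster had 0, 0.0663, 0.114 and 0.149 CPM in DTY-IL and 0.693, 1.66, 1.17 and 0.394 CPM in Swarna, without overlap. Its control difference of −3.45 did not pass (edgeR adjusted p = 0.101), and under drought it was 6.05 (0.0148), where DTY-IL drought 2 had 4.87 CPM and the other 7 drought libraries at most 0.341 CPM. Of the 11 genes, 7 were DEGs higher in DTY-IL under drought, against 4.2% of all tested loci.

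Several genes that were higher in DTY-IL were ordered alike within that group, highest in DTY-IL control 4 and lowest in control 3. CHLG, CHLD, P5CS1, KSL7, LOC_Os12g17910, LOC_Os07g43810 and LOC_Os08g41990 had this order. UBQ5, often used as a reference gene, had it too, at 163, 166, 97.3 and 254 CPM in DTY-IL and 77.1, 120, 93.0 and 122 CPM in Swarna, and differed by 0.72 (edgeR adjusted p = 0.0474). ACT1 differed by 0.12 (0.928). The reverse order, highest in DTY-IL control 3 and lowest in control 4, held for several genes that were lower in DTY-IL. They were MADS1, CKX11, HAK5, LOC_Os02g47510, LOC_Os02g57280, LOC_Os11g25780 and LOC_Os03g04770. Hd3a, MADS15, GA20ox2 and LUX, also lower, had neither order, and LOC_Os03g10620, lower too, had the first. Of the other named genes higher in DTY-IL, LOC_Os11g34770 had the first order and LOC_Os01g37210 and LOC_Os01g37260 the reverse. LOC_Os07g34570, LOC_Os05g47540, LOC_Os04g23040, LOC_Os01g73656 and the peroxidase LOC_Os07g01370 had neither. The share of all tested loci with either order was not counted. The part of these orders in the differences was not tested.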
